A study of Mus musculus with 42 samples.

Results

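The BAF complex, the mammalian SWI/SNF chromatin remodeler, exchanges several of its subunits when neural progenitors become neurons, and the 8 genes described here encode the subunits of that exchange. Actl6a, Ss18, Phf10 and Dpf2 encode subunits carried by the progenitor complex, and Actl6b, Ss18l1, Dpf1 and Dpf3 encode the paralogs carried by the neuronal complex. The genes were taken by name, 8 of the 52636 genes in the count files, and all 8 passed the filter on low counts. Their expression was measured by RNA-seq in 9 neuronal cultures derived from forebrain of embryonic day 16. Per the study's methods, this is the day of dissection, and the cells were grown for days in culture before collection. Peaks that name the genes were taken from lists of SMARCA2/4 binding (ChIP-seq) and open chromatin (ATAC-seq) in adult hippocampus.

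The genotypes were euploid, Ts65Dn and Ts65Dn;Brwd1+/-. Ts65Dn mice carry a segmental trisomy with an extra copy of Brwd1, and the last group combines this trisomy with 1 mutant (repro5) Brwd1 allele, so that the study could ask what restoring Brwd1 copy number does to a trisomic brain. All groups came from crosses of Ts65Dn females on one mixed background. The RNA-seq held 3 culture libraries per genotype, treated with AraC to hold back dividing glia, with 17270070 to 25892802 counts in genes per library and, per the labels, pooled male and female tissue. The ChIP-seq used hippocampus of males aged 6 to 8 weeks with hippocampi of 2 animals pooled in each library, and the ATAC-seq used NeuN-positive nuclei of male hippocampus.

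The culture libraries of the last genotype did not show lower Brwd1 RNA than Ts65Dn, and they are called the Ts65Dn;Brwd1+/- labelled libraries here. Euploid libraries held 89.4 CPM (a gene's count relative to the library total, scaled by TMM) ± 3.66 (SD, n = 3) of Brwd1. Ts65Dn held 127 ± 2.13 (n = 3) and the Ts65Dn;Brwd1+/- labelled libraries 139 ± 12.3 (n = 3), so the gene was not lower there. Counts over the whole gene do not separate RNA of the mutant allele from that of the others, so they do not settle the genotype. Xist, the RNA of the inactive X chromosome, was between 0.526 and 1.12 CPM in the 6 other libraries and between 1409 and 1982 CPM in the Ts65Dn;Brwd1+/- labelled ones. The low level in those 6 libraries goes against their label of pooled male and female tissue. The high level in the Ts65Dn;Brwd1+/- labelled libraries does not. The methods of the study say that animals of molecular analyses were not pooled. Sex and this genotype cannot be told apart, and every comparison with these libraries rests on the label alone. Ts65Dn replicate 3 also stood apart, with 1145 CPM summed over 12 neuron markers, beside 2901 and 2515 CPM in the other Ts65Dn libraries and 4424 to 5460 CPM in the euploid ones. Fold changes of the 8 genes in comparisons with Ts65Dn are given with and without that library.

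In the developing brain, the exchange accompanies the exit from the cell cycle. REST, a repressor of neuronal genes outside neurons, holds back the microRNAs miR-9 and miR-124, which in turn act on Actl6a mRNA as neurons form. The neuronal complex is known for its part in dendrite growth and in activity-dependent transcription. These statements are background and were not tested here.

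Sequences of this circuit at Actl6a and Actl6b are shown first, as background to the pair whose ratio differed most between Ts65Dn and euploid among 5 pairs. The mature microRNAs of the miR-9 hairpins (RefSeq, GRCm38.p6), each made from 3 loci, are given with the seed (bases 2 to 8) in capitals.
mmu-miR-9-3p: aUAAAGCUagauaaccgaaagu
mmu-miR-9-5p: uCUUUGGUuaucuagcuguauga
The 374 bases that follow the last coding base of Actl6a hold 1 match to the seed of miR-9-3p (AGCTTTA, searched on the transcribed strand) and none to that of miR-9-5p (ACCAAAG). The match is shown in capitals within 28 bases of the plus strand, chr3:32726626-32726653 (mm10).
Actl6a site: acctcaacgtctgtAGCTTTAgtacact
Among 2053 protein-coding genes of chromosomes 2 and 3 with at least as many bases after the last coding base, 3.31% held AGCTTTA and 3.56% held ACCAAAG within the first 374 of them.

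The promoters of 7 members (all but Ss18) were read from RefSeq (GRCm38.p6) as 250 bases before to 50 bases after the gene start. The left and right parts of the RE1 element, the sequence that REST recognises, were searched on both strands as TCAGCACC and GGACAGC. Actl6b was the only 1 of the 7 to hold either, and it held both, at bases 22 to 28 and 38 to 45 after the RefSeq start. They are shown in capitals as they read on the plus strand, chr5:137553567-137553590.
Actl6b RE1 parts: GCTGTCCggccgcctcGGTGCTGA
Of 32851 promoters of the same length, 1.65% held the left part, 6.56% the right part and 0.131% both. A match of letters does not show that a factor binds there.

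The parts of these windows that lie outside annotated exons are shown for Actl6a, Actl6b and Dpf1, as a progenitor gene and 2 neuronal genes with an ATAC-seq peak overlapping the window in all 3 genotypes (Dpf2 and Ss18l1 have one too), with the GC box (GGGCGG) and the CCAAT box on either strand in capitals. That of Actl6a precedes the RefSeq start and lies in the first intron of a longer transcript that GENCODE starts at 32706298.
Actl6a, chr3:32708296-32708506, plus strand: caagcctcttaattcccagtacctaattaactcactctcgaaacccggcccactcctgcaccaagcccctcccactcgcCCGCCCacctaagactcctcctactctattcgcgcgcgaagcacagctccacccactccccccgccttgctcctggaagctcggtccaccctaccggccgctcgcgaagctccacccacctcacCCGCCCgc
Actl6b, chr5:137553296-137553516, plus strand: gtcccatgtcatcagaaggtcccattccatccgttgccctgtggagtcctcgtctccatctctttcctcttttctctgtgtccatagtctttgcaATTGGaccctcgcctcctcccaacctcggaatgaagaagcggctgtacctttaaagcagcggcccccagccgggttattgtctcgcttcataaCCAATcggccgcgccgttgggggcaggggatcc
Dpf1, chr7:29303755-29303950, plus strand: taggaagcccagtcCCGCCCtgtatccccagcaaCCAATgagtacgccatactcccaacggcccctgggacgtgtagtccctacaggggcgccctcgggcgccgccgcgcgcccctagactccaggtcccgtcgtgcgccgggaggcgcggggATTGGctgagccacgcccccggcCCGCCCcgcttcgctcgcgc
Over the whole 300-base windows, the GC box was found in 6 of the 7 members, all but Dpf2, beside 35.7% of all promoters. The CCAAT box was found in Actl6b, Dpf1, Dpf2 and Dpf3, beside 37.4% of all promoters, and the TATA box (TATAAA) in none of the 7, beside 13.6%.

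In Ts65Dn against euploid cultures, the neuronal subunits were lower and most progenitor subunits higher. Of the 8 members, 7 passed the test (edgeR's quasi-likelihood test at a Benjamini-Hochberg adjusted threshold of 0.05), 3 higher and 4 lower. All 4 lower members were the neuronal subunits, and the 3 higher ones were Actl6a, Ss18 and Dpf2. Over all 17173 genes tested, 46.7% passed in this comparison, 25.6% higher and 21.1% lower. The libraries of the 2 genotypes did not overlap for 7 of the 8 members, beside 56.8% of all genes. In bulk cultures, fewer cells of a type and less RNA per cell cannot be told apart. Without Ts65Dn replicate 3 the log2 fold changes were 0.40 for Actl6a, 0.50 for Ss18, -0.58 for Ss18l1, -0.63 for Dpf1, -0.46 for Dpf3 and -0.08 for Phf10. The first 5 of these passed the test again, and Phf10 again did not. Dpf2 (0.24, edgeR adjusted p = 0.0592) lost its call, so 6 members passed in place of 7.

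**Figure D1:**
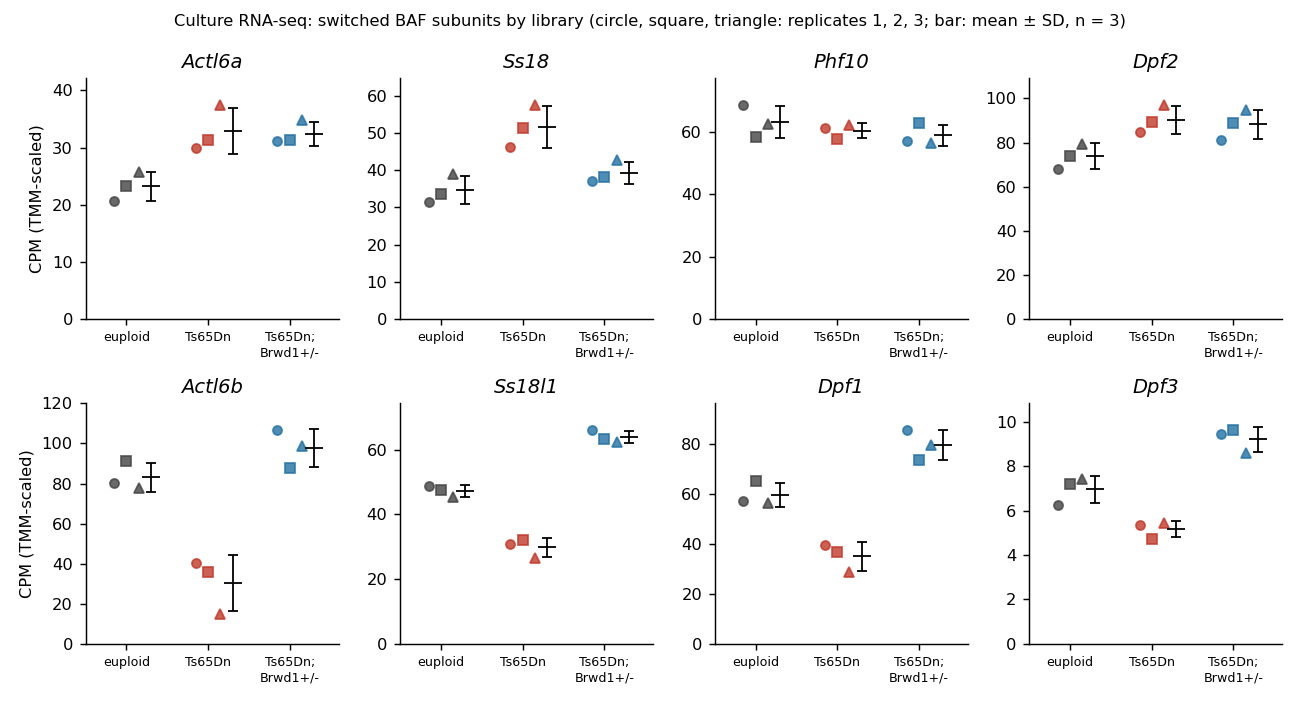
Expression of the 8 subunits in every culture library, as TMM-scaled CPM on a linear axis from 0, with the mean ± SD of 3 libraries beside the points. The upper row holds the progenitor and the lower row the neuronal subunits. All 4 neuronal subunits were lowest in Ts65Dn, and Phf10 overlapped among all 3 genotypes.

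Actl6b (ENSMUSG00000029712, mm10 chromosome 5, 137553517 to 137569582, plus strand) encodes the actin-related subunit of the neuronal complex. It was measured at 80.2, 91.4 and 77.7 CPM in the euploid libraries, at 40.3, 36.0 and 14.6 CPM in the Ts65Dn libraries and at 107, 87.9 and 98.7 CPM in the Ts65Dn;Brwd1+/- labelled libraries. The Ts65Dn values lay below all others, with replicate 3 far below the other Ts65Dn libraries, while the euploid and Ts65Dn;Brwd1+/- labelled values overlapped. Its log2 fold change was -1.45 (SE 0.29, edgeR adjusted p = 0.00274) in Ts65Dn against euploid, or 2.74-fold lower. Without Ts65Dn replicate 3 it was -1.12 (edgeR adjusted p = 1.01e-05). The Ts65Dn;Brwd1+/- labelled libraries were 3.23-fold above Ts65Dn (log2 fold change 1.69, SE 0.29, edgeR adjusted p = 6.68e-04). That log2 fold change was 1.35 without Ts65Dn replicate 3. Against euploid they differed by 0.24 on the log2 scale (SE 0.28, edgeR adjusted p = 0.577).

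Actl6a (ENSMUSG00000027671, mm10 chromosome 3, 32706298 to 32726973, plus strand) encodes the actin-related subunit of progenitors. Its values were 20.6, 23.3 and 25.6 CPM in euploid, 29.9, 31.4 and 37.4 CPM in Ts65Dn and 31.1, 31.3 and 34.8 CPM in the Ts65Dn;Brwd1+/- labelled libraries. Both trisomic groups lay above every euploid library and overlapped each other. The log2 fold change was 0.50 (SE 0.11, edgeR adjusted p = 0.0043) in Ts65Dn and 0.48 (SE 0.11, edgeR adjusted p = 0.00811) in the Ts65Dn;Brwd1+/- labelled libraries, each against euploid. Between the latter and Ts65Dn it was -0.02 (SE 0.11, edgeR adjusted p = 0.881). Actl6a therefore passed against euploid in the Ts65Dn;Brwd1+/- labelled libraries too, while Actl6b did not (0.24, SE 0.28). This does not show that the 2 paralogs differed there, since their ratio, given below, overlapped between these libraries and euploid. The 2 trisomic comparisons share the euploid libraries. Of the exon bases of Actl6a, 11.6% overlap Mrpl47 on the other strand, and the library kit does not mark strand, so some of these reads cannot be assigned.

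Ss18l1 (CREST, ENSMUSG00000039086, mm10 chromosome 2, 180042509 to 180070201, plus strand) encodes a calcium-responsive coactivator subunit of the neuronal complex. The euploid libraries held 48.7, 47.5 and 45.3 CPM, the Ts65Dn libraries 30.9, 32.1 and 26.4 CPM, and the Ts65Dn;Brwd1+/- labelled libraries 66.0, 63.4 and 62.5 CPM. No 2 genotypes overlapped, in the order Ts65Dn, euploid and Ts65Dn;Brwd1+/- labelled. It was 1.58-fold lower in Ts65Dn than in euploid (log2 fold change -0.66, SE 0.08, edgeR adjusted p = 2.18e-04). It was 2.15-fold higher in the Ts65Dn;Brwd1+/- labelled libraries than in Ts65Dn (1.10, SE 0.08, edgeR adjusted p = 3.89e-06) and 1.35-fold higher than in euploid (0.44, SE 0.08, edgeR adjusted p = 0.00275).

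Ss18 (ENSMUSG00000037013, mm10 chromosome 18, 14624198 to 14682914, minus strand) encodes the progenitor paralog of CREST. It was measured at 31.6, 33.5 and 39.0 CPM in euploid, at 46.3, 51.5 and 57.6 CPM in Ts65Dn and at 37.0, 38.1 and 42.7 CPM in the Ts65Dn;Brwd1+/- labelled libraries. Ts65Dn lay above both other genotypes without overlap. The log2 fold change against euploid was 0.58 (SE 0.11, edgeR adjusted p = 0.00203), and that of the Ts65Dn;Brwd1+/- labelled libraries against Ts65Dn was -0.40 (SE 0.11, edgeR adjusted p = 0.00907). Between the Ts65Dn;Brwd1+/- labelled and euploid libraries, which overlapped, the difference was 0.18 (SE 0.11, edgeR adjusted p = 0.249).

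Dpf1, Dpf3, Dpf2 and Phf10 encode the BAF45 subunits, PHD finger proteins of which a complex takes 1 at a time. Dpf1 (ENSMUSG00000030584, mm10 chromosome 7, 29303951 to 29318243, plus strand), a neuronal form, stood at 57.2, 65.2 and 56.2 CPM in euploid, 39.7, 36.9 and 28.6 CPM in Ts65Dn and 85.5, 73.4 and 79.6 CPM in the Ts65Dn;Brwd1+/- labelled libraries. The 3 genotypes did not overlap, in the same order as for Ss18l1. Its log2 fold change was -0.76 (SE 0.12, edgeR adjusted p = 8.9e-04) in Ts65Dn against euploid and 1.18 (SE 0.12, edgeR adjusted p = 2.58e-05) in the Ts65Dn;Brwd1+/- labelled libraries against Ts65Dn. Against euploid the latter were 0.42 higher (SE 0.12, edgeR adjusted p = 0.0246), a call that was lost in 4 of 16 alternatives, in each of which 1 library was left out (euploid replicate 1 or 3, Ts65Dn;Brwd1+/- labelled replicate 1 or 3).

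Dpf3 (ENSMUSG00000021221, mm10 chromosome 12, 83213745 to 83487716, minus strand), the other neuronal form, was the lowest of the 8 in every library. It stood at 6.26, 7.19 and 7.42 CPM in euploid, 5.35, 4.74 and 5.43 CPM in Ts65Dn and 9.45, 9.63 and 8.59 CPM in the Ts65Dn;Brwd1+/- labelled libraries. The groups again did not overlap, but the steps were small. The log2 fold changes were -0.43 (SE 0.11, edgeR adjusted p = 0.0115) in Ts65Dn against euploid, 0.83 (SE 0.11, edgeR adjusted p = 1.44e-04) in the Ts65Dn;Brwd1+/- labelled libraries against Ts65Dn and 0.40 (SE 0.11, edgeR adjusted p = 0.0191) against euploid. The last was lost in 3 of 16 alternatives, each without 1 library (euploid replicate 1, Ts65Dn;Brwd1+/- labelled replicate 1 or 2).

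Dpf2 (ENSMUSG00000024826, mm10 chromosome 19, 5896516 to 5913010, minus strand), a form of the progenitor complex, stood at 67.9, 73.8 and 79.5 CPM in euploid, 84.6, 89.4 and 97.0 CPM in Ts65Dn and 81.3, 88.7 and 94.6 CPM in the Ts65Dn;Brwd1+/- labelled libraries. Both trisomic groups lay above all euploid libraries and overlapped each other. The difference was 0.29 (SE 0.09, edgeR adjusted p = 0.0205) in Ts65Dn, and this call was lost in 4 of 16 alternatives, among them the one without Ts65Dn replicate 3 (0.24, edgeR adjusted p = 0.0592), without euploid replicate 1 (0.23, edgeR adjusted p = 0.0729), without euploid replicate 2 (0.29, edgeR adjusted p = 0.0515) and with no filter on low counts (0.26, edgeR adjusted p = 0.0732). In the Ts65Dn;Brwd1+/- labelled libraries it was 0.26 against euploid (SE 0.09, edgeR adjusted p = 0.05004), which missed the threshold and passed it in 8 of 16 alternatives.

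Phf10 (ENSMUSG00000023883, mm10 chromosome 17, 14945009 to 14961273, minus strand) encodes the progenitor form that also sits in the PBAF complex. It was measured at 68.7, 58.5 and 62.6 CPM in euploid, 61.4, 57.9 and 62.3 CPM in Ts65Dn and 57.3, 63.0 and 56.7 CPM in the Ts65Dn;Brwd1+/- labelled libraries. All groups overlapped, and no comparison passed in any of 16 alternatives. The log2 fold change was -0.06 (SE 0.08) in Ts65Dn against euploid and -0.10 (SE 0.08) in the Ts65Dn;Brwd1+/- labelled libraries against euploid, with edgeR adjusted p of 0.547 and 0.379. Phf10 shares 9.57% of its exon bases with a gene on the other strand.

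**Figure D2:**
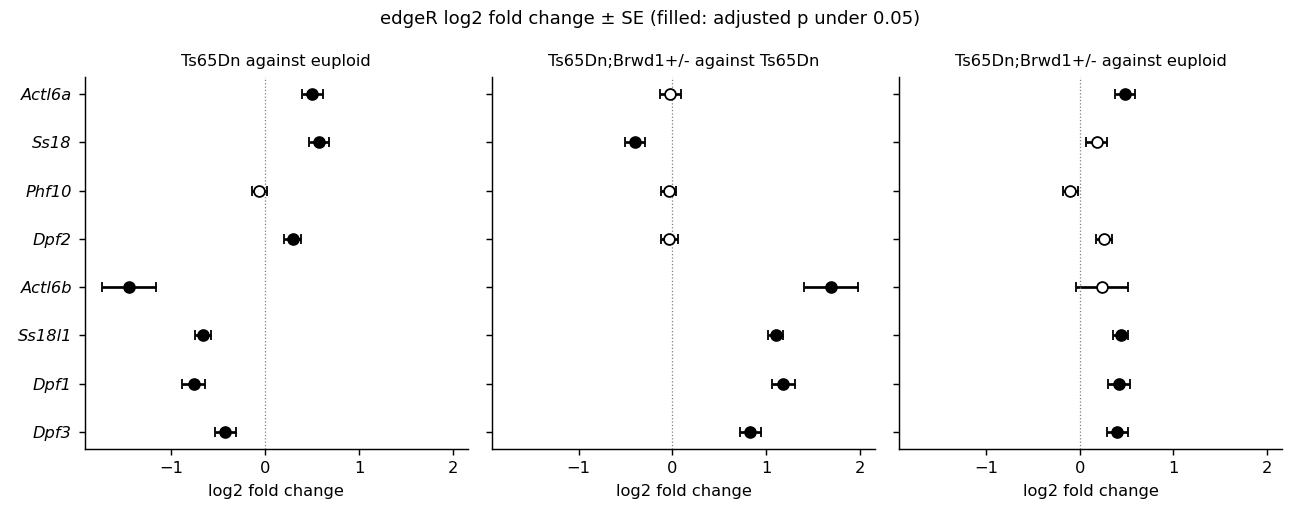
Log2 fold change of each subunit (points) with its standard error (bars) in the 3 comparisons of culture genotypes, fitted over 9 libraries. Filled points passed an adjusted p of 0.05. In the Ts65Dn against euploid panel the 4 neuronal subunits lie left of 0 and Actl6a, Ss18 and Dpf2 right of it, and in the middle panel the 4 neuronal subunits lie right of 0.

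Set against Ts65Dn, the Ts65Dn;Brwd1+/- labelled libraries differed in 5 of the 8 members, 4 higher (the neuronal subunits) and 1 lower (Ss18), and 58.1% of all genes passed, 27.6% higher and 30.5% lower. The same 5 members had groups that did not overlap, beside 68.4% of all genes. Actl6a, Dpf2 and Phf10 differed by at most 0.04 on the log2 scale. Without Ts65Dn replicate 3, the log2 fold changes were 1.02 for Ss18l1, 1.05 for Dpf1, 0.86 for Dpf3 and -0.32 for Ss18, which all passed again, and 0.08 for Actl6a, 0.02 for Dpf2 and -0.02 for Phf10, which did not. Against euploid, 4 members passed, all higher (Actl6a, Ss18l1, Dpf1 and Dpf3), beside 29.2% of all genes, 14% higher and 15.2% lower. That count of members was 2 without euploid replicate 1 and from 3 to 5 with any other library left out. Groups did not overlap for these and Dpf2, 5 members in all, beside 45.9% of all genes. Each pair of these 3 comparisons shares 1 group of libraries, so they are not independent of each other.

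Within each library the ratio of a neuronal subunit to its progenitor paralog was formed from counts per kb of exon. Actl6b/Actl6a was 3.54, 3.57 and 2.76 in the euploid libraries, 1.23, 1.05 and 0.355 in Ts65Dn and 3.13, 2.55 and 2.59 in the Ts65Dn;Brwd1+/- labelled libraries. In euploid the neuronal paralog was thus the more abundant per length, and in Ts65Dn replicate 3 the order was turned. The mean log2 ratio was 1.71 ± 0.21 (SD, n = 3), -0.38 ± 0.97 (n = 3) and 1.46 ± 0.16 (n = 3) in the same order of genotypes. Ts65Dn differed from euploid by -2.09 (SE 0.57) and without replicate 3 by -1.53. The Ts65Dn;Brwd1+/- labelled libraries lay 1.83 above Ts65Dn (SE 0.57), or 1.28 without that replicate. Neither group of the other genotypes overlapped Ts65Dn, while euploid and the Ts65Dn;Brwd1+/- labelled libraries overlapped and differed by 0.25 (-0.25 for Ts65Dn;Brwd1+/- labelled minus euploid, SE 0.15).

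Ss18l1/Ss18 was 3.35, 3.07 and 2.52 in euploid, 1.45, 1.35 and 0.995 in Ts65Dn and 3.87, 3.61 and 3.17 in the Ts65Dn;Brwd1+/- labelled libraries. The mean log2 ratios were 1.57 ± 0.21, 0.32 ± 0.29 and 1.82 ± 0.14 (SD, n = 3 each). Ts65Dn lay below both other genotypes, by -1.25 against euploid (SE 0.21), or -1.08 without replicate 3, and the Ts65Dn;Brwd1+/- labelled libraries lay 1.50 above Ts65Dn (SE 0.19), or 1.34 without it. For both ratios, a two-sided exact permutation test over the 1680 ways to form 3 groups of 3 gave p = 0.00714 for any difference among genotypes. Each pair of genotypes with Ts65Dn gave an exact permutation p of 0.1, the smallest that 3 against 3 allows, and euploid against the Ts65Dn;Brwd1+/- labelled libraries gave an exact permutation p of 0.2 for either ratio. Each of the 2 ratios had 1 test over all genotypes and 3 over pairs, and with Benjamini-Hochberg adjustment over the 2 ratios the exact permutation p over all genotypes was again 0.00714. The size of a ratio depends on the length used. Per kb of coding sequence, the euploid Ss18l1/Ss18 ratio was 1.42 in place of 2.96 (geometric means) and that of Actl6b/Actl6a 3.66 in place of 3.27. In Ts65Dn the Ss18l1/Ss18 ratio was 0.598 per kb of coding sequence in place of 1.25, so which of these paralogs was the more abundant there depends on the length used.

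The BAF45 ratios were added after the values were seen and carry no test. Dpf1/Dpf2 had a mean log2 ratio of -0.03 ± 0.17 in euploid, -1.10 ± 0.35 in Ts65Dn and 0.12 ± 0.19 in the Ts65Dn;Brwd1+/- labelled libraries (SD, n = 3 each). Dpf3/Dpf2 was lower throughout, at -2.78 ± 0.04, -3.50 ± 0.13 and -2.64 ± 0.18. Dpf1/Phf10 was -0.22 ± 0.22, -0.93 ± 0.28 and 0.30 ± 0.19. In all 3 the Ts65Dn libraries lay below both other genotypes without overlap, and without replicate 3 the Ts65Dn means were -0.91, -3.49 and -0.77.

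**Figure D3:**
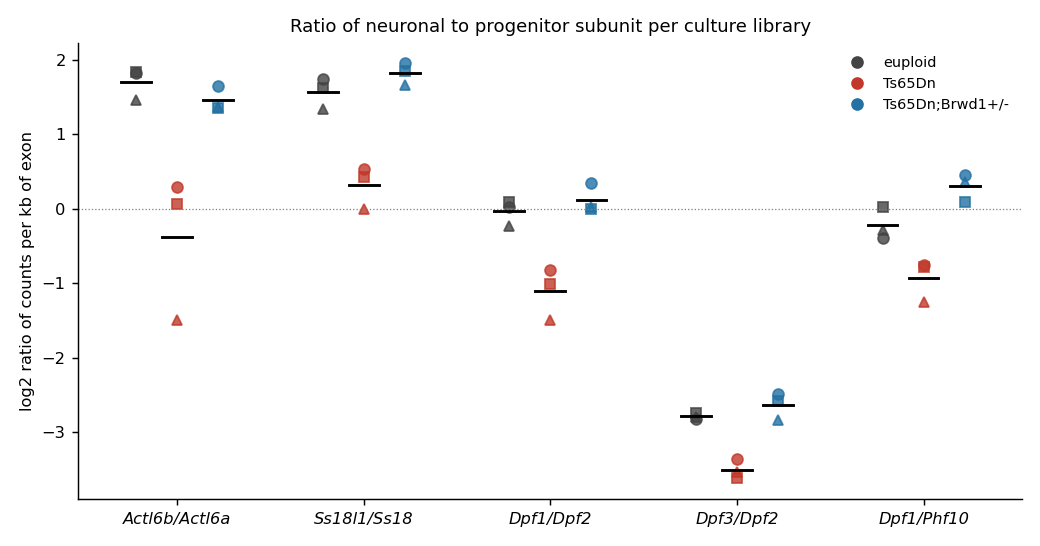
Log2 ratio of counts per kb of exon for 5 pairs of neuronal and progenitor subunits in each culture library, with the mean of 3 libraries as a bar and replicates 1, 2 and 3 as circle, square and triangle. Ts65Dn lies lowest in every pair, and its replicate 3 (triangle) is the lowest library in 4 of the 5 pairs.

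Per kb of exon, Actl6b was the most abundant of the 8 in euploid (19.5 CPM per kb ± 1.71, SD, n = 3) and Dpf3 the least (1.65 ± 0.145). Phf10 (12.9 ± 1.05) came second in order, followed by Dpf2 (11.3 ± 0.898), Dpf1 (11.1 ± 0.916) and Ss18l1 (10.9 ± 0.395), and the last 3 differed from each other by less than the SD of Dpf1. Actl6a (5.97 ± 0.644) and Ss18 (3.68 ± 0.408) followed. Per kb of coding sequence Actl6b was again highest and Dpf3 lowest, but the order between them changed, with Dpf2 second and Ss18 above Actl6a. In Ts65Dn the mean of Actl6b was 7.11 ± 3.23 CPM per kb and that of Actl6a 8.46 ± 1.03. The order of these means rests on replicate 3. Actl6b stood at 9.45, 8.44 and 3.42 CPM per kb and Actl6a at 7.69, 8.07 and 9.63 in replicates 1, 2 and 3.

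The members were set beside markers of the cells a forebrain culture can hold. Of 12 neuron markers, 10 were lower and none higher in Ts65Dn than in euploid, beside 21.1% and 25.6% of all genes. Their median log2 fold change was -1.25, beside 0.04 over all genes. With Ts65Dn replicate 3 left out, 10 were lower and 1 higher (median -0.91). The 12 summed to 1145 to 2901 CPM in Ts65Dn, 4424 to 5460 CPM in euploid and 4796 to 6014 CPM in the Ts65Dn;Brwd1+/- labelled libraries. Of 12 neural progenitor markers, 6 were higher and 5 lower in Ts65Dn, beside 25.6% and 21.1% of all genes. They summed to 6513 to 8441 CPM, against 3690 to 4371 CPM in euploid. Most of that difference was Vim, at 4961 to 6624 CPM against 2392 to 2920 CPM, and the other 11 summed to 1552 to 1816 CPM against 1298 to 1450 CPM. In Ts65Dn all 12 cell cycle genes were higher (379 to 441 CPM against 274 to 295 CPM), beside 25.6% of all genes. With replicate 3 left out, 5 progenitor markers were higher and 5 lower, and 11 cell cycle genes were higher. The cell cycle genes were higher still in the Ts65Dn;Brwd1+/- labelled libraries (663 to 680 CPM), which also held the most oligodendrocyte lineage RNA (773 to 922 CPM over 8 markers, against 325 to 376 CPM in euploid and 554 to 654 CPM in Ts65Dn).

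The 8 astrocyte markers summed to 3014 to 3817 CPM in euploid, 3486 to 4227 CPM in Ts65Dn and 3654 to 4148 CPM in the Ts65Dn;Brwd1+/- labelled libraries. Of these markers, 4 were higher and 2 lower in Ts65Dn than in euploid, beside 25.6% and 21.1% of all genes (3 and 2 markers without Ts65Dn replicate 3). The 8 microglia markers summed to at most 15.1 CPM in any library. Of the 8 markers of meninges, fibroblasts and vessels, 7 were tested. In Ts65Dn against euploid 3 were higher and 3 lower, beside the same shares of all genes. The 8 summed to 191 to 274 CPM in Ts65Dn and to 90.7 to 127 CPM in the other libraries. Of the 2 endothelial markers among them, Cldn5 was at 0 in all 9 libraries and Pecam1 was detected in each, at group means of 0.768, 0.443 and 0.739 CPM in euploid, Ts65Dn and Ts65Dn;Brwd1+/- labelled libraries. The part of the makeup of the cultures in the subunit changes was not tested.

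Relative to the summed neuron markers, an alternative chosen after seeing the data, the neuronal subunits behaved unlike each other. Actl6b was 14.7, 17.9 and 17.6 CPM per 1000 CPM of neuron markers in euploid, 13.9, 14.3 and 12.8 in Ts65Dn and 17.7, 18.3 and 20.1 in the Ts65Dn;Brwd1+/- labelled libraries. The Ts65Dn difference to euploid thereby went from -1.45 to -0.29 on the log2 scale, with groups that still did not overlap. For Ss18l1, Dpf1 and Dpf3 the sign turned, to 0.62, 0.52 and 0.87, since their CPM fell less than that of the markers. Without Ts65Dn replicate 3 these values were 0.30, 0.25 and 0.42, and that of Actl6b -0.24. The progenitor subunits Actl6a and Ss18 stood at 1.80 and 1.87 above euploid on this scale, Dpf2 at 1.59 and Phf10 at 1.23, or 1.29, 1.38, 1.12 and 0.80 without that library. A gene that does not follow the markers rises on this scale by construction where they fall. Phf10 did so with a log2 fold change of -0.06 in CPM. In the Ts65Dn;Brwd1+/- labelled libraries against Ts65Dn, Ss18l1, Dpf1 and Dpf3 were at -0.26, -0.17 and -0.53 on this scale, and at 0.07, 0.10 and -0.08 without Ts65Dn replicate 3, so the negative sign for Ss18l1 and Dpf1 rests on that library. Against euploid, the Ts65Dn;Brwd1+/- labelled libraries kept higher levels of Ss18l1 (0.37) and Dpf1 (0.35) per neuron marker without overlap.

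**Figure D4:**
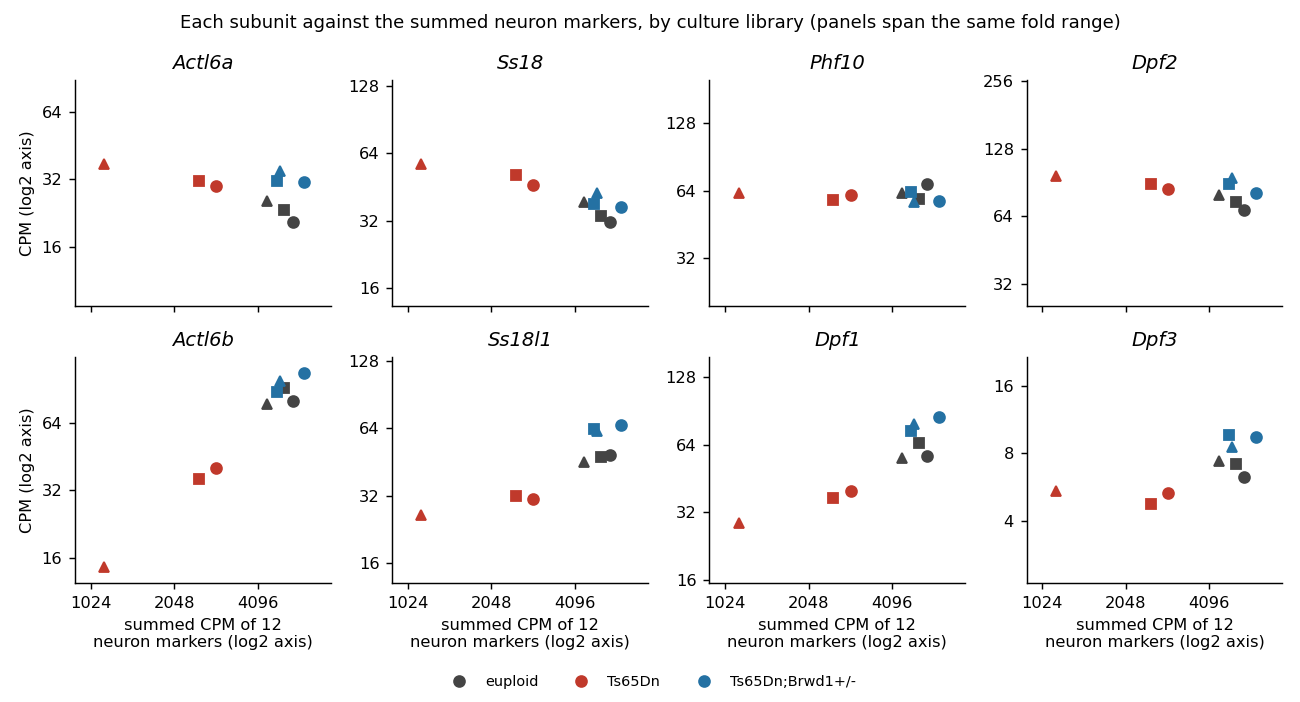
CPM of each subunit against the summed CPM of 12 neuron markers in the 9 culture libraries, on log2 axes that span the same fold range in each panel. Symbols mark replicates 1 (circle), 2 (square) and 3 (triangle). Actl6b falls with the markers from 107 to 14.6 CPM, Ss18l1 and Dpf1 fall less, Phf10 stays between 56.7 and 68.7 CPM, and Ts65Dn replicate 3 is the library farthest to the left.

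Correlations over the 9 libraries, which share genotypes, describe a split of neuronal and progenitor subunits only in part. Log2 CPM of Actl6b followed that of Dpf1 (r = 0.95), Ss18l1 (r = 0.92) and Dpf3 (r = 0.77) and ran against that of Ss18 (r = -0.85). Actl6a followed Dpf2 (r = 0.97) and Ss18 (r = 0.80). Other pairs across the sets were weaker, with Actl6b at -0.47 to Actl6a and -0.50 to Dpf2. Ss18l1 was at -0.19 to Actl6a and -0.25 to Dpf2, and Actl6a at -0.24 to Dpf1 and 0.01 to Dpf3. Phf10 ran against the progenitor subunits Actl6a (r = -0.51) and Ss18 (r = -0.27). Among 10347 protein-coding genes with a mean of at least 10 CPM, those most like Actl6b included Crmp1, Shc2, Efnb3 and Plcl2 (r = 0.998 to 0.999). Those most like Ss18l1 were Hsdl1, Ssh2, Aldh1l2, Slc8a3 and Dcx (r = 0.992 to 0.998). Actl6a was most like Phgdh, Me3, Dpf2, Sufu and Mcm4 (r = 0.969 to 0.976), and Ss18 most like Slc20a2, Cyp4f16, Pef1, Pxdn and Hdac1 (r = 0.979 to 0.984). With Spearman correlation in place of Pearson, between 0 and 2 of the 5 genes stayed in each list, so these names are not firm.

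Genes known to steer the exchange were measured in the same cultures. Of 8 fixed genes, 2 were higher and 4 lower in Ts65Dn against euploid (median log2 fold change -0.37), beside 25.6% and 21.1% of all genes. Rest, the repressor named above, rose from 27.9 CPM in euploid to 43.7 CPM in Ts65Dn (log2 fold change 0.65, SE 0.12, edgeR adjusted p = 0.00206) and was at 20.6 CPM in the Ts65Dn;Brwd1+/- labelled libraries (-1.08 against Ts65Dn, edgeR adjusted p = 4.59e-05). Ptbp1, the splicing repressor of non-neuronal cells, rose from 98.0 to 149 CPM (0.61, SE 0.12, edgeR adjusted p = 0.00327), while its neuronal paralog Ptbp2 fell from 91.1 to 55.7 CPM (-0.71, SE 0.12, edgeR adjusted p = 0.00128).

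The host transcripts of miR-124 fell in Ts65Dn, from 85.9 to 31.4 CPM for Mir124a-1hg (-1.45, SE 0.31, edgeR adjusted p = 0.00426) and from 9.99 to 4.58 CPM for Mir124-2hg (-1.12, SE 0.20, edgeR adjusted p = 0.00155). A host of miR-9, Mir9-3hg, was at 39.9 and 35.3 CPM (-0.18, SE 0.08, edgeR adjusted p = 0.0972). These are host genes and not the mature microRNAs shown above. Rcor2, a REST corepressor, fell by 0.55 on the log2 scale, from 14.1 to 9.61 CPM (edgeR adjusted p = 0.00923). Rcor1, the other REST corepressor among the 8, was at 37.0 CPM in euploid and 36.5 CPM in Ts65Dn (-0.02, SE 0.07, edgeR adjusted p = 0.831). Again 2 were higher and 4 lower without Ts65Dn replicate 3, with log2 fold changes of 0.53 for Rest, 0.52 for Ptbp1, -0.59 for Ptbp2, -1.10 for Mir124a-1hg, -0.91 for Mir124-2hg and -0.49 for Rcor2. In the Ts65Dn;Brwd1+/- labelled libraries against Ts65Dn, 5 of the 8 were higher and 2 lower, beside 27.6% and 30.5% of all genes, and against euploid 3 higher and 1 lower, beside 14% and 15.2%.

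The 23 other BAF genes did not share one direction in Ts65Dn. Against euploid, 6 were higher and 7 lower (median log2 fold change -0.12), beside 25.6% and 21.1% of all genes, and without Ts65Dn replicate 3 only 2 were higher and 6 lower. The complex genes had sums of 3558 to 3916 CPM in Ts65Dn and 3608 to 4013 CPM in euploid. Actb, which encodes cytoplasmic actin, held a large part of them, with means of 1329 CPM in Ts65Dn and 1128 CPM in euploid. The sums therefore do not show that the other genes were level. The ATPase genes Smarca2 and Smarca4, whose proteins the ChIP-seq antibody recognises, differed by -0.03 (SE 0.07) and -0.16 (SE 0.09), with edgeR adjusted p of 0.722 and 0.153. The lowest were Bcl11a (-1.27, edgeR adjusted p = 8.73e-04), Bcl11b (-1.26, edgeR adjusted p = 2.23e-04) and Bcl7a (-1.14, edgeR adjusted p = 4.47e-04), of which the BCL11 proteins are transcription factors of cortical neurons. These 3 stood at -1.02, -1.06 and -0.95 without Ts65Dn replicate 3. In the Ts65Dn;Brwd1+/- labelled libraries 15 of the 23 were higher than in euploid and none lower (median 0.42), beside 14% and 15.2% of all genes. Against Ts65Dn 15 were higher and 1 lower (median 0.39), beside 27.6% and 30.5% of all genes. Smarca4 was 0.42 above euploid there (SE 0.09, edgeR adjusted p = 0.00501).

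In adult hippocampus, chromatin at these genes was read from 1 peak list per genotype and assay, so no replicate error can be given and the lists were compared without a test. ATAC-seq peaks named 7 of the 8 members in each of the 3 genotypes, with Phf10 named in none. Over all genes tested in the cultures, the euploid list named 53.3%, the Ts65Dn list 66% and the Ts65Dn;Brwd1+/- list 65.6%. The lists held 15521, 29195 and 30244 peaks, of which 11, 19 and 15 named a member.

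Peaks at the gene starts were found for both sets of subunits. In each genotype a peak overlapped the promoter window of Actl6a (fold enrichment 7.36 in euploid, 8.00 in Ts65Dn and 7.22 in the Ts65Dn;Brwd1+/- list), Actl6b (4.60, 4.63 and 4.36), Dpf1 (4.37, 5.09 and 3.78), Dpf2 (5.67, 8.06 and 5.94) and Ss18 (4.35, 4.97 and 4.83), whose window of the same length was set at its GENCODE start. The progenitor genes Actl6a and Ss18 thus carried promoter peaks in sorted adult neurons, as Actl6b and Dpf1 did. At the Ss18l1 start a peak was present in each list as well (4.07, 5.08 and 3.96), but only the Ts65Dn list gave it to Ss18l1, and the other lists gave it to the neighbouring gene Psma7. The promoter window of Dpf3 carried a peak in the Ts65Dn (3.80) and Ts65Dn;Brwd1+/- (3.61) lists and none in the euploid list, which is the shortest of the 3. No peak overlapped the window of Phf10.

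All 11 euploid ATAC-seq peaks of members overlapped a peak of the same member in the Ts65Dn list and in the Ts65Dn;Brwd1+/- list, which is 100% of the euploid and 57.9% and 73.3% of the other lists' member peaks. Outside the promoter windows, Dpf3 had 2 peaks in euploid, 6 in Ts65Dn and 4 in the Ts65Dn;Brwd1+/- list, and Ss18l1 had 1 peak centred 5.86 to 6.02 kb into the gene in each genotype.

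SMARCA2/4 ChIP-seq peaks named 6 of the 8 members in the euploid list (Actl6a, Actl6b, Ss18l1, Dpf1, Dpf2 and Dpf3), 2 in the Ts65Dn list (Ss18l1 and Dpf1) and 1 in the Ts65Dn;Brwd1+/- list (Ss18l1). For Ss18l1 these counts include peaks on its coding exons, of which it was not tested whether they stand for binding. The lists differed in size, with 22667, 1290 and 1873 peaks, and named 38.6%, 4.14% and 4.89% of all genes tested in the cultures. Depth per ChIP-seq library is unknown from these lists, and a gene with no peak in a short list is not shown to be unbound. Among the 23 other BAF genes, ATAC-seq peaks named 20, 21 and 21 and ChIP-seq peaks 15, 5 and 5, in the same order of genotypes. In euploid the peaks near transcript starts had fold enrichments of 3.82 and 3.52 for Actl6a, 4.04 for Actl6b and 4.34 for Dpf2, near the median of 3.74 over the whole list. Dpf1 carried 9 euploid peaks across the gene, from 2.79 to 4.52 fold, and Dpf3 carried 4, from 3.01 to 5.28 fold. The lowest peak of each had a q-value (0.0540 and 0.139) above the filter of 0.05 stated by the study. In Ts65Dn, Dpf1 had a single peak of 3.99 fold, at a place with no euploid peak, whose q-value, 0.0903, lies above that filter too.

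Ss18l1 differed from the other members in its ChIP-seq peaks. In each of the 3 lists, 10 of its peaks lay on 10 of its 11 coding exons, 1 peak per exon, and the only exon without one was the last, with 24 coding bases. Fold enrichments of these peaks ran from 5.74 to 13.7 in euploid (median 8.76), from 5.89 to 14.5 in Ts65Dn (median 9.03) and from 4.16 to 15.2 in the Ts65Dn;Brwd1+/- list (median 11.7), beside medians of 3.74, 3.70 and 3.78 over all peaks of each list. By fold enrichment, the highest of them ranked 3, 2 and 3 in its list.

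The edges of these peaks followed the exons and not the introns. Each peak began at most 38 bases before its exon and ended at most 45 bases after it, and coding sequence made up 53.1 to 100% of each peak. At exon 1, the coding part of which starts 291 bases into the gene, the Ts65Dn and Ts65Dn;Brwd1+/- peaks began 2 and 1 bases ahead of the first coding base. Peaks of 2 exons are shown from the Ts65Dn list (GRCm38.p6, plus strand, positions as the list gives them, read as counted from 1), with coding bases in capitals and intron or other bases in lower case, because they let the match of peak and exon be seen.
Exon 1, chr2:180042798-180042899: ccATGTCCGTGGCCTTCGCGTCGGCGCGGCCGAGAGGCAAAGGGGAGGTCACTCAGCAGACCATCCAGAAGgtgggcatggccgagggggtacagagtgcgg
Exon 9, chr2:180061880-180062058: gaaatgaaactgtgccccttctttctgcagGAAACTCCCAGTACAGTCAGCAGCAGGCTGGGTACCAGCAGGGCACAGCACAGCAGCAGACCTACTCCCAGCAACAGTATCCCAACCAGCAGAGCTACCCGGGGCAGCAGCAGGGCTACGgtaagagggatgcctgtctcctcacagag
Both peaks are among the 10, with fold enrichments of 6.45 and 14.5 and q-values of 1.78e-09 and 2.92e-39.

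**Figure D5:**
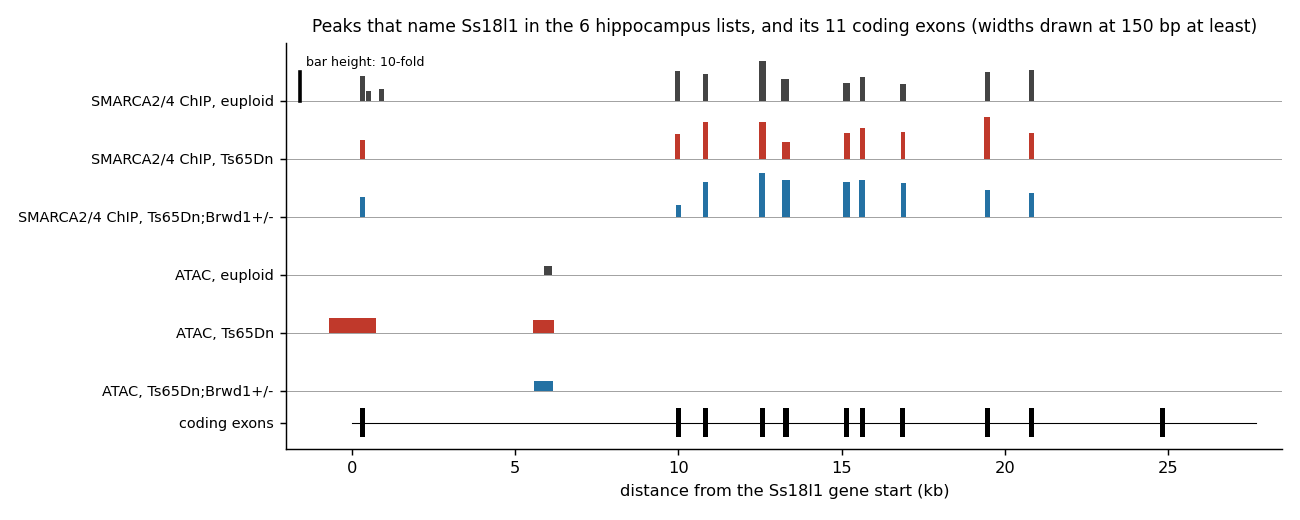
Peaks that name Ss18l1 in the 6 hippocampus lists (bar height is fold enrichment, with a bar of 10-fold for scale) and its 11 coding exons, by distance from the gene start in kb. In each ChIP-seq list 10 peaks stand on 10 of the exons, the euploid list holds 2 more within 1 kb of the start, and the ATAC-seq peaks at about 6 kb and at the start stand on none of the exons further into the gene.

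No other gene had as many such peaks. Of all gene-body peaks, 2.63% in the euploid, 6.08% in the Ts65Dn and 5.59% in the Ts65Dn;Brwd1+/- ChIP-seq list lay with at least 50% of their bases in coding exons of the gene they name. Ss18l1 held 9 of the 162, 24 and 25 such peaks in these lists, exon 1 being listed as promoter. They fell in 134, 16 and 15 genes, Ss18l1 included, and no other gene held more than 2. In the 3 ATAC-seq lists Ss18l1 held no such peak. Whether the exon peaks stand for SMARCA2/4 on the Ss18l1 gene or for Ss18l1 DNA without introns in the samples was not tested, and they enter the counts of SMARCA2/4 peaks above as listed. With these peaks left out, a choice made after seeing the data, the euploid list held 2 peaks of Ss18l1 (3.51 and 3.95 fold, within 1 kb of the start) and the trisomic lists none, so that the Ts65Dn;Brwd1+/- list named no member and the Ts65Dn list Dpf1 alone.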

How the data were processed

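RNA-seq reads of the cultures were aligned to mm10 by HISAT2, and the authors deposited 1 file of raw read counts per gene and library. The study names featureCounts, and the submitters' processing notes list it with HISAT2 and DESeq2. Lines that name no gene took 37.4 to 40.0% of counts and were left out. Of 52636 gene lines, 52403 matched GENCODE vM21 (GRCm38), which gave symbols, exons and coding sequence. For ChIP-seq and ATAC-seq the authors deposited 1 MACS peak list per genotype and assay, whose fold enrichment is a ratio over local background and whose q-value is that of the caller. How replicates were combined into a list is not given in the sources used here.

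Genes were filtered with filterByExpr (17173 kept) and scaled by TMM, and 3 genotypes were fitted together with edgeR 4.0.16 (quasi-likelihood F-test, Benjamini-Hochberg adjustment, threshold 0.05). The fit was checked on simulated counts. SEs were the log2 fold change over the square root of F. CPM values were TMM-scaled, and log2 CPM used a prior count of 2. Ratios were log2 ratios of counts per kb of merged exons, tested by two-sided exact permutation. The labels do not say whether culture libraries were separate animals. The study describes cortices dissociated separately and animals kept as separate samples, but not which embryo gave which library, so p-values measure the spread between these libraries. Differences between replicates exceeded counting error (mean chi-square per gene from 4.05 to 50.2). A peak named a member when its gene identifier did. Named genes were the 8 members, list genes that define a list or passed the test, the 5 most correlated genes of 4 members (1 of them is not reported here), and Brwd1 and Xist. Alternatives were DESeq2 1.42.0 size factors and Wald test, no filter or at least 10 counts in every library, a replicate block, 1 residual factor, only the compared groups, and each library left out. The members and lists were chosen with earlier results of these data known.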

Additional observations from a re-analysis of the deposited data

How the results depend on the processing

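Of 384 refits of the 24 member log2 fold changes, 356 kept direction and side of the threshold, 11 lost the call, 8 gained it and 9 turned sign, none of them a called value. Those that turned, all in the Ts65Dn;Brwd1+/- labelled libraries against Ts65Dn, were Actl6a with no filter (0.010), with at least 10 counts in every library (0.033), and without Ts65Dn replicate 3 or Ts65Dn;Brwd1+/- labelled replicate 1 or 2 (range with 1 library left out, -0.088 to 0.081), Phf10 with at least 10 counts (0.014), and Dpf2 with at least 10 counts (0.021) and without Ts65Dn replicate 3 or Ts65Dn;Brwd1+/- labelled replicate 1 (range -0.085 to 0.031). Relative to summed neuron markers, called values turned for Ss18l1 (0.62), Dpf1 (0.52) and Dpf3 (0.87) in Ts65Dn against euploid, and for Ss18l1 (-0.26), Dpf1 (-0.17) and Dpf3 (-0.53) in the Ts65Dn;Brwd1+/- labelled libraries against Ts65Dn. Without Ts65Dn replicate 3 they were 0.30, 0.25 and 0.42 in the former comparison and 0.073, 0.10 and -0.078 in the latter, so there Ss18l1 and Dpf1 did not turn. By construction this scale rises where the markers fall.

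Members called in the Ts65Dn;Brwd1+/- labelled libraries against euploid ranged from 2 to 5 with 1 library left out. The mean log2 ratio Ss18l1/Ss18 in euploid was 0.51 per kb of coding sequence. ChIP-seq peaks naming a member were 18 in the euploid list, 1 in Ts65Dn and 0 in Ts65Dn;Brwd1+/- without the exon peaks of Ss18l1 and 1 such peak of Dpf1. With replicate number as a block, 8349, 10268 and 5397 genes passed in the 3 comparisons, beside 8017, 9980 and 5008. Same-numbered libraries did not deviate together in every pair (r from -0.16 to 0.28), so the numbers were not taken to pair them. The block changed the call of 1 member, Dpf2 in the Ts65Dn;Brwd1+/- labelled libraries against euploid (edgeR adjusted p = 0.00918). With 3 libraries per genotype, pairwise exact tests cannot go below 0.1, and peak lists allow no error.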
